A study of Mus musculus with 33 samples.

Results

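The mitochondrial ribosomal protein genes encode the protein subunits of the ribosome that works inside mitochondria. They were taken as all non-control probes whose array gene name began with Mrpl or Mrps followed by a digit, which gave 125 probes for 75 genes, 46 named Mrpl and 29 named Mrps, out of 15793 genes tested. These names stand for the large and the small subunit, but Mrps18a and Mrps30 belong to the large one and Mrps36 to neither. Where a gene had several probes, the brightest on average was used. Each gene was well above background on at least 2 arrays of every group, no member value lay on the low-signal floor, and no member was on the X chromosome.

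Expression was measured on 33 single-colour arrays, with amplified RNA from 1 blastocyst on each, of mouse strain (C57BL/6NxDBA/2)F1. The clones, made by somatic cell nuclear transfer into oocytes, came from male adult Purkinje neurons (n = 4), male adult CA1 pyramidal neurons of the hippocampus (n = 4), Sertoli cells of neonatal testis, which nurse the germ cells (n = 4, male), female adult Purkinje neurons (n = 4), female adult CA1 pyramidal neurons (n = 4) and adult cumulus cells, which surround the oocyte (n = 3, female). Male (n = 7) and female (n = 3) blastocysts from in vitro fertilisation (IVF) were the controls. All clones were activated with strontium and cytochalasin B and exposed to 50 nM trichostatin A, a histone deacetylase inhibitor, for 1 h of activation and for 5 h and 2 h thereafter, and had 96 h in culture. For the IVF blastocysts the labels also give 96 h in culture, but no trichostatin A. In every comparison of clones with IVF, trichostatin A therefore cannot be told apart from nuclear transfer. Only embryos that had reached the blastocyst stage were measured. The labels do not say how many donor animals stood behind a group, so p-values measure the spread between these blastocysts, which may in part be technical.

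The mitochondrial ribosome translates the few messenger RNAs of the mitochondrial genome, all of which encode subunits of the respiratory chain or the ATP synthase. Its RNAs come from the mitochondrial genome, but every one of its proteins is encoded in the nucleus, made in the cytosol and imported. One set of the proteins has counterparts in bacterial ribosomes and another set is specific to mitochondria. In early mouse embryos mitochondria are inherited from the oocyte and their DNA is not replicated until around implantation, while nuclear genes for mitochondrial proteins are transcribed from the embryonic genome.

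Mrpl22, Mrpl23, Mrpl35 and Mrps16 were called higher in 5 of the 6 comparisons of clones with IVF blastocysts described below, and Mrpl2 was among the 3 called lower in 3 of the 6. The 250 bases before the most upstream annotated start of these 5 genes are shown as the regulatory sequence of the 4 members called higher most often and of an example of those called lower (RefSeq, build GRCm38.p6, 5′ to 3′ on the strand of the gene). Capitals mark the core letters of the Nrf1 motif, TGCGCA, which reads the same on both strands, and the ETS motif bound by Gabpa, CCGGAAG, or its reverse complement.
Mrpl22, chr11:58171414-58171663, plus strand: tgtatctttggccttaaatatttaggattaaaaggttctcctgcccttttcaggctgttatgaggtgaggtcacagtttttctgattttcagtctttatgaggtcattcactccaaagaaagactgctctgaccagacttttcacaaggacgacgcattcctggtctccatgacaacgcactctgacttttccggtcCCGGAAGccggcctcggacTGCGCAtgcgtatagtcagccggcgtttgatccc
Mrpl23, chr7:142532782-142533031, plus strand: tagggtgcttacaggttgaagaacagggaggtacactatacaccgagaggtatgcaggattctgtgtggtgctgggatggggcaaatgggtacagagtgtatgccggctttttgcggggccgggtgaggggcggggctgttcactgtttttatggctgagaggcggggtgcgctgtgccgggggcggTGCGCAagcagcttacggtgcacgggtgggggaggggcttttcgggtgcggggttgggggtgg
Mrpl35, chr6:71823785-71824034, minus strand: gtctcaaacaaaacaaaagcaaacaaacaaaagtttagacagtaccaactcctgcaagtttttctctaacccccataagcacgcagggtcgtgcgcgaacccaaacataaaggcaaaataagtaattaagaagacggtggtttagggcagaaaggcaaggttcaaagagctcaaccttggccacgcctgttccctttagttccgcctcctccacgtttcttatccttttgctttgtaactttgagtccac
Mrps16, chr14:20393635-20393884, minus strand: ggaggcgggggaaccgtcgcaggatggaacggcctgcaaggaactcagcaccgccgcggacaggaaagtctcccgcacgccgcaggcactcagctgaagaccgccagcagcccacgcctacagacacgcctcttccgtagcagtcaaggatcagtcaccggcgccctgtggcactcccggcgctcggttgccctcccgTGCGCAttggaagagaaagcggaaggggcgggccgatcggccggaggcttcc
Mrpl2, chr17:46645971-46646220, plus strand: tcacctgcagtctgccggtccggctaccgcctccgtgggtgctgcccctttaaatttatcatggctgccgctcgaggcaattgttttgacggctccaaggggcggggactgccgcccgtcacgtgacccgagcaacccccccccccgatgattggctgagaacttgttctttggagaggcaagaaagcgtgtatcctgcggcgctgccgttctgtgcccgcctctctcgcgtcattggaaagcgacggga

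The Nrf1 letters lay 34 bases before the start of Mrpl22, 63 before that of Mrpl23 and 52 before that of Mrps16, and the ETS letters 53 bases before the start of Mrpl22. Mrpl35 carried the Yy1 letters AAGATGG on either strand within its first 50 transcribed bases, which are not printed. Over 300-base windows from 250 bases before to 50 after a start, 66 of the 75 members matched, with 72 windows. The Nrf1 letters were in 27.8% of the member windows, against 7.76% of 32851 windows of all genes and 9.74% of those of protein-coding genes. The ETS letters were in 33.3% of the member windows, against 8.86% of all windows, and the Yy1 letters in 16.7%, against 6.34%. At least 1 of the 3 motifs was in 58.3% of the member windows, against 20.4% of all windows. The member windows had a median GC content of 58.5%, against 52.7% for all windows. Its part in the motif shares was not tested. Of the 24 members with the ETS letters 16 were called higher in at least 1 comparison of clones with IVF, and so were 27 of the 42 members without them. For the Nrf1 letters these counts were 12 of 19 with and 31 of 47 without them. For the Yy1 letters they were 6 of 12 with and 37 of 54 without them. Of all genes, 35.1% were called higher at least once. These matches describe letters and are not evidence of binding. Members with no window in the table were Mrpl4, Mrpl13, Mrpl15, Mrpl19, Mrpl38, Mrpl54, Mrps28, Mrps34 and Mrps35.

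The arrays formed 2 sets that limit every comparison with IVF. The 20 Purkinje, CA1 and Sertoli arrays carried one scanner and software version, and the 13 IVF and cumulus arrays, taken by the series' design text from an earlier study, another. The processed signal also differed between the sets near background. On each of the 20 arrays 0% of non-control spots had a processed signal of 0 or less, against 15.65% to 23.3% on the 13 others. The part of this difference in the results was not tested. Each clone group also had a slide of its own. The share of probes well above background ran from 44.9% to 62.5% across arrays. Signal strength, taken as the 75th percentile, was 229.7 to 659.1 on male Purkinje arrays and 353.8 to 838 on female Purkinje arrays, against 904.3 to 1465.6 in the other groups. Of the 8 Purkinje arrays, 5 lay under 500, namely male replicates 3 and 4 and female replicates 2, 3 and 4. The blastocyst labels fitted the data, since the trophectoderm genes Cdx2, Gata3, Krt8 and Krt18 and the pluripotency gene Pou5f1 were well above background on all arrays, whereas the neuronal gene Camk2a had its median on the floor of -3.43 in every group. The Purkinje cell marker Pcp2 was above the floor on all arrays, IVF included. The mean of the CA1 markers with a value (3 of 5) was -0.74 in male and -0.94 in female CA1 clones, against -1.27 in male and -1.44 in female IVF blastocysts. That of the Purkinje cell markers with a value (2 of 5) was -1.57 in male and -1.75 in female Purkinje clones and -2.03 in male and -2.16 in female CA1 clones, against -1.43 in male and -1.65 in female IVF blastocysts. Mean levels of 6 trophectoderm markers ran from 5.97 to 6.80 in Purkinje clones of male donors and from 6.38 to 6.63 in those of female donors, against 5.59 to 5.83 (male) and 5.68 to 6.15 (female) in CA1 clones and 5.85 to 6.10 in male IVF blastocysts. The mean of 5 primitive endoderm markers was 1.27 (Purkinje), 0.66 (CA1) and 0.99 (Sertoli) in males, against 1.94 in male IVF blastocysts, and 0.89 (Purkinje), 0.78 (CA1) and 1.69 (cumulus) in females, against 2.49 in female IVF blastocysts. The part of these neuronal and lineage markers in the results was not tested. In such whole-embryo RNA, fewer cells of a type and less RNA per cell cannot be told apart.

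As a group, the 75 genes stood at similar levels in clones from neurons and at the lowest level in cumulus clones at the 75th percentile scaling and after quantile normalization, though not when scaled to the array median. The mean over the members, on the log2 scale relative to the 75th percentile, came to 3.75 ± 0.19 in male Purkinje clones, to 3.74 ± 0.05 in CA1 clones of males and to 3.52 ± 0.14 in Sertoli clones (SD, n = 4 each), against 3.47 ± 0.22 in male IVF blastocysts (SD, n = 7). It was 3.77 ± 0.12 in Purkinje clones of females, 3.64 ± 0.19 in their CA1 counterparts (SD, n = 4 each) and 3.02 ± 0.08 in cumulus clones, against 3.27 ± 0.10 in female IVF blastocysts (SD, n = 3 each). The 3 cumulus values, 2.94 to 3.11, were below all the others, whereas the male IVF range, 3.21 to 3.75, overlapped those of all 3 male clone groups. Quantile normalization, which gives all arrays the same distribution of signals, changed the order. The male Purkinje mean was then 3.62 ± 0.15, below the male IVF mean of 3.63 ± 0.23, and the cumulus clones stayed lowest, at 3.16 ± 0.04. Scaled to the array median, the lowest mean was that of Sertoli clones, at 7.842, against 7.924 in male IVF blastocysts, and that of cumulus clones was 7.858, against 8.018 in female IVF blastocysts.

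**Figure D1:**
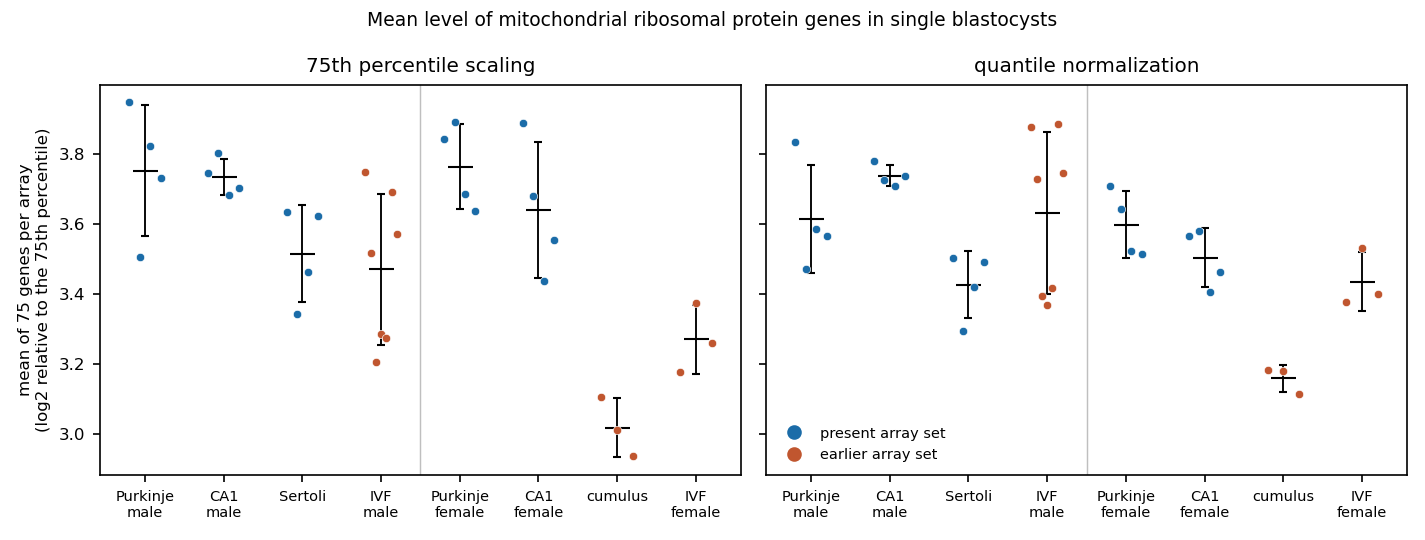
Mean log2 signal of the 75 genes on each array (points), by group, with the group mean and SD (bars), after 75th percentile scaling (left) and after quantile normalization (right); colours mark the array set. The 3 cumulus arrays are lowest under both, and the male IVF arrays spread from 3.21 to 3.75 under the first.

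More members were called higher than lower in 5 of the 6 comparisons of clones with IVF at the 75th percentile scaling, but how many, and in male Purkinje, female Purkinje and Sertoli clones also the direction, depended on the scaling. A gene was called at a Benjamini-Hochberg adjusted p under 0.05 over all 15793 genes, in a limma model of the group means. In male Purkinje clones 27 members (36%) were called higher and 1 lower (1.33%) than in male IVF blastocysts, where 18.3% and 10.3% of all genes were called, and the members' median difference was 0.29, against 0.07 over all genes. In male CA1 clones 25 members were called higher (33.3%) and 7 lower, where 17.7% and 13.3% of all genes were, with a median of 0.32, against 0.01. In Sertoli clones 12 were called higher (16%) and 8 lower (10.7%), which was close to the 15% and 10.8% of all genes, with a median of 0.12.

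In the female groups, 26 members were called higher (34.7%) and 0 lower in Purkinje clones than in IVF blastocysts, where 13% and 6.67% of all genes were, with a median of 0.58, against 0.08. In female CA1 clones 16 were called higher (21.3%) and 2 lower, where 8.41% and 4.88% of all genes were, with a median of 0.45. Quantile normalization moved these splits towards balance. The members called higher and lower were then 10 and 10 in male Purkinje clones (11.8% and 13.4% of all genes), 20 and 9 in male CA1 clones (15.5% and 15.3%), 2 and 16 in Sertoli clones (11.2% and 13%), 10 and 2 in female Purkinje clones (7.47% and 8.79%), and 4 and 3 in female CA1 clones (5.02% and 6.65%). The medians were 0.00, 0.14, -0.17, 0.19 and 0.07. The direction of the group as a whole therefore flipped in Sertoli clones.

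Scaling to the array median turned the sign of the members' median in Purkinje clones of both sexes too, and normexp background correction in those of males. Scaled to the array median, 6 members were called higher and 12 lower in male Purkinje clones than in IVF blastocysts (6.74% and 16.3% of all genes), and 3 and 11 in female Purkinje clones (2.93% and 17.7%), with members' medians of -0.05 and -0.03. The medians over all genes were -0.14 and -0.33, so the members' medians lay above them. With normexp before the 75th percentile scaling the counts were 2 and 11 in male Purkinje clones (21.5% and 9.73% of all genes, median -0.21), and 3 and 2 in female Purkinje clones (18.2% and 5.62%, median 0.08). The medians over all genes were then 0.27 and 0.28, so the members' medians lay below them in both sexes. Male CA1 clones had more higher than lower calls under these settings as well, with 10 and 8 (10.5% and 16.2% of all genes) for the array median and 13 and 3 (11.6% and 7.91%) for normexp. Without the 5 Purkinje arrays of low signal, 2 members were called higher and 0 lower between female Purkinje clones, with 1 array left, and IVF blastocysts, where 1.3% and 0.652% of all genes were. In male Purkinje clones the counts were then 11 and 1, where 7.1% and 3.55% were. The male clones shared one set of IVF arrays and the female clones another, so these comparisons are not independent of one another.

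**Figure D2:**
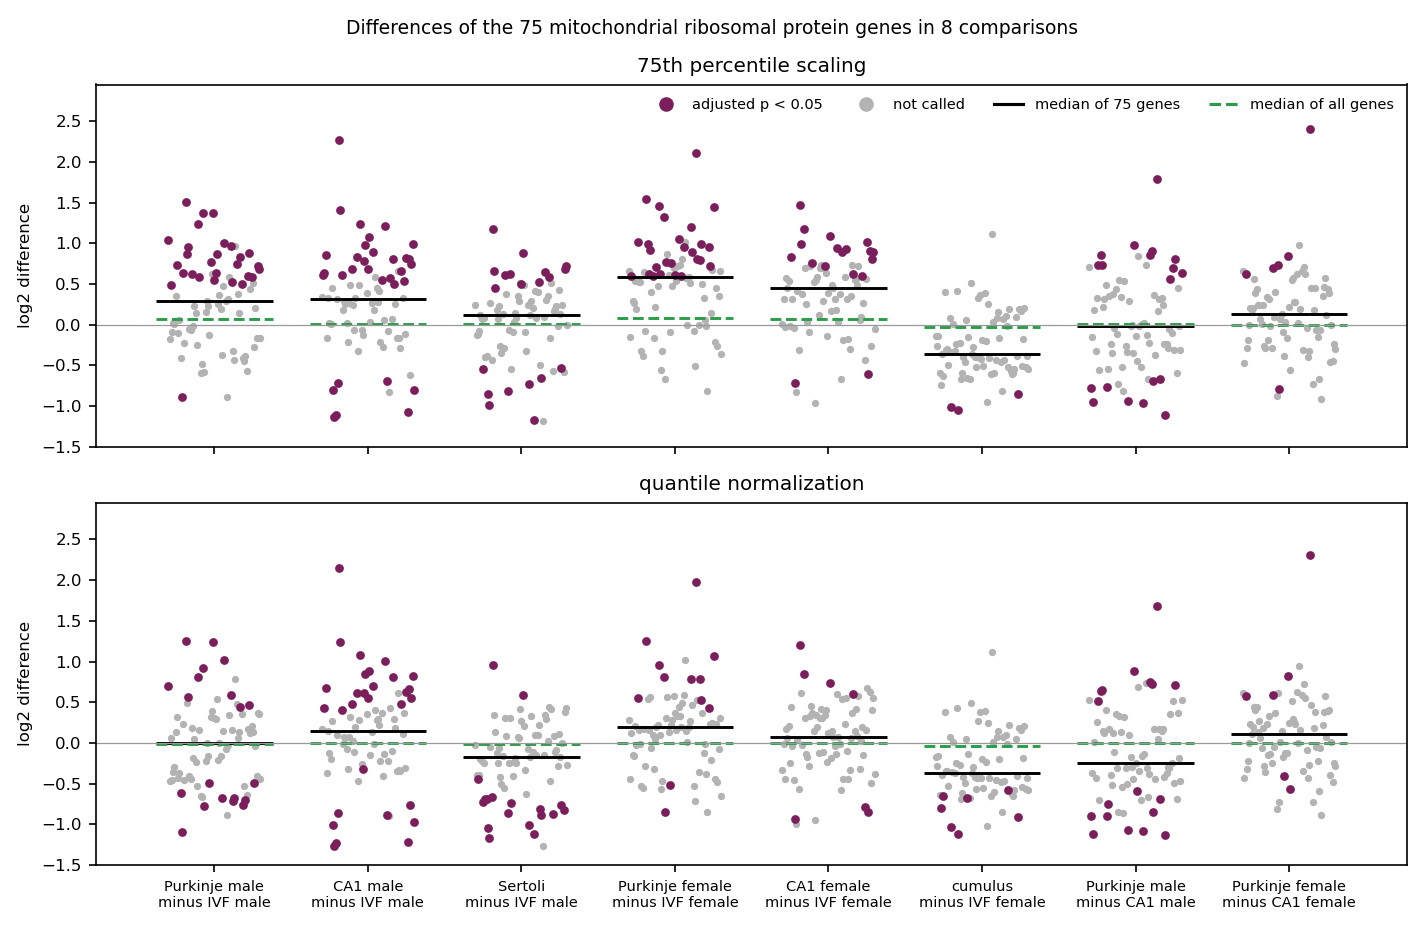
Difference in mean log2 signal of each of the 75 genes (points) in 8 comparisons, after 75th percentile scaling (top) and quantile normalization (bottom); dark points passed an adjusted p under 0.05, and lines give the median of the members (black) and of all genes (green, dashed). After quantile normalization the members' medians in the neuronal and Sertoli clones against IVF are lower (-0.17 to 0.19), while Mrpl22 stays on top in male CA1 clones at 2.27 (75th percentile) and 2.15 (quantile).

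Across the 6 comparisons with IVF, 45 of the 75 members were called higher at least once, where 35.1% of all genes were, and 15 lower at least once, where 23.5% were. Both higher and lower were 2 of them (Mrpl20 and Mrps31), where 1.58% of all genes were, and 17 were called in none, where 43% were. The 12 called higher in at least 4 of the 6 were Mrpl22, Mrpl23, Mrpl24, Mrpl35, Mrpl39, Mrpl45, Mrpl48, Mrpl49, Mrps6, Mrps7, Mrps16 and Mrps28, where 5.79% of all genes were called as often. Called higher in at least 5 were 4 members, where 2.7% of all genes were, and no member was called in all 6.

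Mrpl22, the counterpart of the bacterial protein L22 that lines the tunnel through which the new peptide leaves the ribosome, differed most. In the male groups its log2 signal was 4.47, 3.53, 3.62 and 3.56 (Purkinje clones), 4.55, 4.51, 4.53 and 4.64 (CA1 clones), and 3.26, 3.22, 3.34 and 4.05 (Sertoli clones), against 2.03 to 2.65 with a median of 2.20 (IVF). In the female groups it was 4.09, 4.24, 3.69 and 3.81 in Purkinje clones, 4.11, 3.79, 3.90 and 3.74 in CA1 clones and 2.40, 2.69 and 2.17 in cumulus clones, against 2.22, 2.72 and 2.31 in female IVF blastocysts. All 20 arrays of the neuronal and Sertoli clones lay above all 13 of the cumulus clones and IVF blastocysts, with no overlap. The differences from IVF of the same sex were 1.504 ± 0.18 (SE, adjusted p = 2.11e-06), 2.27 ± 0.18 (adjusted p = 4.41e-10), 1.18 ± 0.18, 1.54 ± 0.22 and 1.47 ± 0.22 in male Purkinje, male CA1, Sertoli, female Purkinje and female CA1 clones, and 0.01 in cumulus clones. Mrpl22 was called in those 5 comparisons under every alternative processing tried, also without the 5 Purkinje arrays of low signal. That split is also exactly the split between the array sets, which cannot be told apart from it. Mrpl22 was measured by a single probe. Within the present set, where the scanner does not differ, male CA1 clones exceeded Sertoli clones by 1.09 ± 0.21 (adjusted p = 0.00123), and male Purkinje clones were lower than male CA1 clones by 0.76 (log2 difference -0.76 ± 0.21, adjusted p = 0.0108), without overlap in either case.

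The other members called higher in 5 comparisons showed smaller differences. Mrpl23, the counterpart of L23, which sits at the tunnel exit, was 5.56, 5.70, 5.39 and 6.07 in male CA1 clones, against 3.77 to 4.70 (median 4.35) in male IVF blastocysts, a difference of 1.41 ± 0.24 (adjusted p = 6.35e-05). These groups did not overlap, but in male Purkinje clones (0.87) and female CA1 clones (0.99) they did. Mrpl35, the counterpart of L35, was 5.52, 6.27, 5.81 and 5.83 in female Purkinje clones, against 4.41, 4.40 and 4.40 in female IVF blastocysts, a difference of 1.46 ± 0.22 (adjusted p = 9.17e-05). In male Purkinje clones it was 1.23 higher than in male IVF blastocysts. The other Mrpl35 probes gave 0.005 and 0.07 in female Purkinje and -0.26 to 0.73 in male Purkinje clones, none called, and -0.10 to 1.31 in male CA1 clones, with 1 called. Mrps16, the counterpart of S16, which stabilises the small subunit, was 5.13, 5.23, 5.04 and 5.11 in male CA1 clones, against 3.49 to 4.30 (median 4.03) in male IVF blastocysts, a difference of 1.21 ± 0.18 (adjusted p = 1.21e-05), and 0.52 to 0.92 higher in the other 4 groups. After quantile normalization Mrpl23 and Mrps16 were called in male CA1 clones only and Mrpl35 in male Purkinje, male CA1 and female Purkinje clones. In all 3 genes the 4 male CA1 clones were above all male IVF blastocysts.

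**Figure D3:**
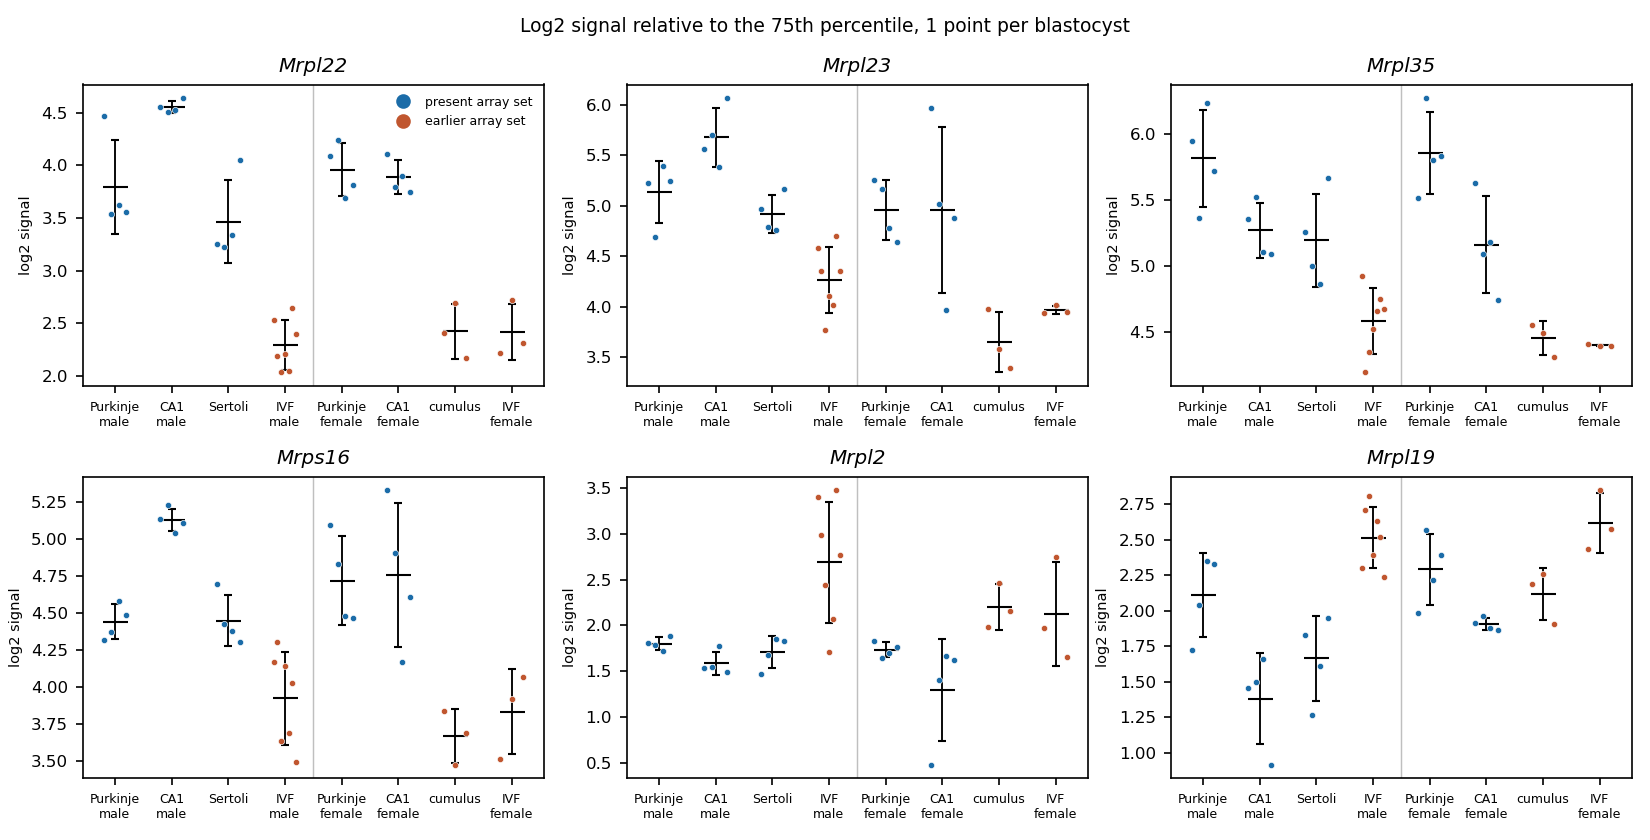
Log2 signal relative to the 75th percentile of the array for 6 genes in each blastocyst (points), with group mean and SD; males are left of the grey line and females right of it, and colours mark the array set. Mrpl22 separates the 2 array sets completely, Mrpl2 is tight in the male clones (1.47 to 1.89) and wide in male IVF blastocysts (1.70 to 3.47), and Mrpl19 is lowest in male CA1 clones.

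The remaining members with the largest increases are listed by comparison, which does not show a difference between donors. Mrpl39 and Mrpl49 were called higher in 4 of the 6 comparisons, Mrps34 in 3, Mrpl27 in 2, and Mrpl41 and Mrpl47 in 1. In male Purkinje clones, Mrpl47 (the counterpart of L29) and the mitochondrion-specific Mrpl39 were both 1.37 higher than in male IVF blastocysts, and in female Purkinje clones Mrps34, a mitochondrion-specific protein of the small subunit, was 1.44 ± 0.28 and Mrpl39 1.32 ± 0.26 higher than in female IVF blastocysts. In male CA1 clones Mrpl41, a mitochondrion-specific protein of the large subunit, was 1.23 ± 0.27 higher. In female CA1 clones Mrpl27, whose bacterial counterpart L27 reaches the peptidyl transferase centre, was 4.73, 4.59, 4.52 and 4.46, against 3.23, 3.40 and 3.56 in female IVF blastocysts, a difference of 1.18 ± 0.23 (adjusted p = 0.0013) without overlap. Mrpl49 was 1.09 higher in female CA1 clones and Mrps34 1.01 higher. In Sertoli clones the largest increases after Mrpl22 were those of Mrpl49 (0.89), Mrps7 (0.72) and Mrps6 (0.68), of which Mrpl49 alone was also called after quantile normalization. Female IVF replicate 2 gave no value for Mrpl39, because its spot carried an outlier flag.

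Some members were lower in clones than in IVF blastocysts, and Mrpl2, Mrpl19 and Mrps35 were so in 3 comparisons each, where 7.67% of all genes were called lower as often. Mrpl2, the counterpart of L2 near the peptidyl transferase centre, was 1.81, 1.78, 1.71 and 1.89 in male Purkinje clones, was 1.53, 1.55, 1.77 and 1.49 in CA1 clones of males and 1.47, 1.68, 1.85 and 1.83 in Sertoli clones, against 1.70 to 3.47 (median 2.77) in male IVF blastocysts. The clones lay close together, the male IVF blastocysts were spread, and the ranges overlapped. The differences were -0.89 ± 0.26, -1.11 ± 0.26 and -0.98 ± 0.26 (adjusted p = 0.0118, 0.00197 and 0.00701). Mrpl19, the counterpart of L19, was 1.46, 1.50, 1.66 and 0.92 in male CA1 clones and 1.83, 1.27, 1.62 and 1.95 in Sertoli clones, against 2.24 to 2.81 (median 2.52) in male IVF blastocysts. Its differences were -1.13 ± 0.16 (adjusted p = 5.56e-06) and -0.85 ± 0.16 (adjusted p = 0.000352), without overlap, and -0.71 ± 0.20 in female CA1 clones, also without overlap.

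Mrps35, a mitochondrion-specific protein of the small subunit, followed the same order. It was 1.69, 1.84, 1.79 and 1.44 in male CA1 clones, against 2.47 to 2.99 (median 2.81) in male IVF blastocysts, a difference of -1.07 ± 0.14 (adjusted p = 1.16e-06), and it was 0.54 lower in Sertoli clones and 0.60 lower in female CA1 clones than in IVF blastocysts of their sex (log2 differences -0.54 and -0.60). Mrpl19 and Mrps35 were called lower in these comparisons under both scalings, and in male Purkinje clones after quantile normalization (-0.62 and -0.50), though not at the 75th percentile scaling. Mrps9 and Mrpl18 were each lower in male CA1 clones (-0.80 both). In Sertoli clones Mrps11 (-1.17 ± 0.39, adjusted p = 0.0289), the counterpart of S11, and Mrpl37 (-0.81) were lower than in male IVF blastocysts, with overlap.

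Cumulus clones, the one clone group measured in the same array set as the IVF blastocysts, had few calls. None of the 75 genes was called higher and 3 were called lower (4%), which was near the 1.95% and 3.36% of all genes, with a median difference of -0.37, against -0.02 over all genes. At an unadjusted p under 0.05 limma gave 1 higher and 16 lower, and the share of all genes at that threshold is not given here. Mrpl28, the counterpart of L28, was 3.73, 3.46 and 3.40 in cumulus clones, against 4.38, 4.63 and 4.70 in female IVF blastocysts (-1.04 ± 0.30, adjusted p = 0.0416). Mrpl20, the counterpart of L20, was 3.95 to 4.10 in the 3 cumulus clones, against 5.10 and 4.95 in the 2 female IVF blastocysts that gave a value (-1.01 ± 0.29, adjusted p = 0.041). Mrps31 was 3.05, 2.73 and 2.77, against 3.80, 3.90 and 3.39 (-0.85 ± 0.23, adjusted p = 0.0283). The groups did not overlap for any of the 3. These calls rest on 3 arrays a group: between 0 and 2 members were called when 1 array was left out, and after quantile normalization 7 were called lower and 0 higher, where 4.58% and 2.51% of all genes were (median -0.37 again). The slide also differed between these groups.

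The comparison of Purkinje with CA1 clones, all in the present array set, asked which members differed with the neuron that gave the nucleus, although each group had its own slide, which cannot be told apart from the donor. Both Purkinje groups were scanned on the same day, and both CA1 groups on a different day. Scan day therefore cannot be told apart from the donor in either sex. In males 11 members were called higher (14.7%) and 8 lower (10.7%) in Purkinje than in CA1 clones, where 10.9% and 7.59% of all genes were, and the members' median was -0.02, against 0.01. In females 5 were higher (6.67%) and 1 lower, where 6.19% and 4.83% of all genes were, with a median of 0.13. These shares are near those of all genes. The male split turned with the processing: 2 were called higher and 8 lower when scaled to the array median, where 4.89% and 7.34% of all genes were, and 0 and 18 with normexp before the 75th percentile scaling, where 14.4% and 10.7% were (median -0.53, against 0.22 over all genes). The female split also turned when scaled to the array median, with 1 higher and 20 lower, where 1.65% and 18.3% were. Under both scalings 16 members were called in males, where 15.2% of all genes were, and 4 in females, where 8.35% were. Mrpl47 and Mrps18b were called higher in both sexes, where 2.75% of all genes were, and no member was called lower in both, where 1.51% were. None was called in either sex without the 5 Purkinje arrays of low signal, which left 2 male and 1 female Purkinje arrays, and in males the count was 10 without CA1 replicate 4 and 11 without Purkinje replicate 3 or 4.

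The stalk of the large subunit, which recruits translation factors and is built on Mrpl10, Mrpl11 and Mrpl12, held Mrpl12 and Mrpl10 among the members called between the male groups. Mrpl12, the counterpart of the stalk protein L7/L12, was 5.20, 4.57, 4.45 and 4.32 in male Purkinje clones, against 5.53, 5.44, 5.61 and 5.72 in male CA1 clones (-0.94 ± 0.27, adjusted p = 0.0153), without overlap. Mrpl10, which anchors it, was 3.97, 3.42, 3.30 and 3.15, against 4.10, 3.92, 4.47 and 4.47 (-0.78 ± 0.25, adjusted p = 0.0311), with overlap. All 3 were called higher in male CA1 clones than in male IVF blastocysts (Mrpl12 by 0.85, Mrpl11 by 0.64 and Mrpl10 by 0.61), where 17.7% of all genes were. Mrpl10 was 2.73 to 4.25 in male IVF blastocysts, which overlapped the male CA1 clones. After quantile normalization Mrpl10 was called in none of the comparisons with IVF. Mrpl12 and Mrpl11 in male CA1 clones also exceeded Sertoli clones, by 0.93 and 0.75. In females the differences of Mrpl12 (-0.28 ± 0.27, adjusted p = 0.58) and Mrpl10 (-0.47 ± 0.25, adjusted p = 0.259) had the same sign as in males and were not called. Mrpl11 was called higher in female Purkinje than in female CA1 clones (0.63 ± 0.17, adjusted p = 0.0196), at 5.45, 5.23, 5.17 and 5.25, against 5.07, 4.59, 4.45 and 4.48.

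**Figure D4:**
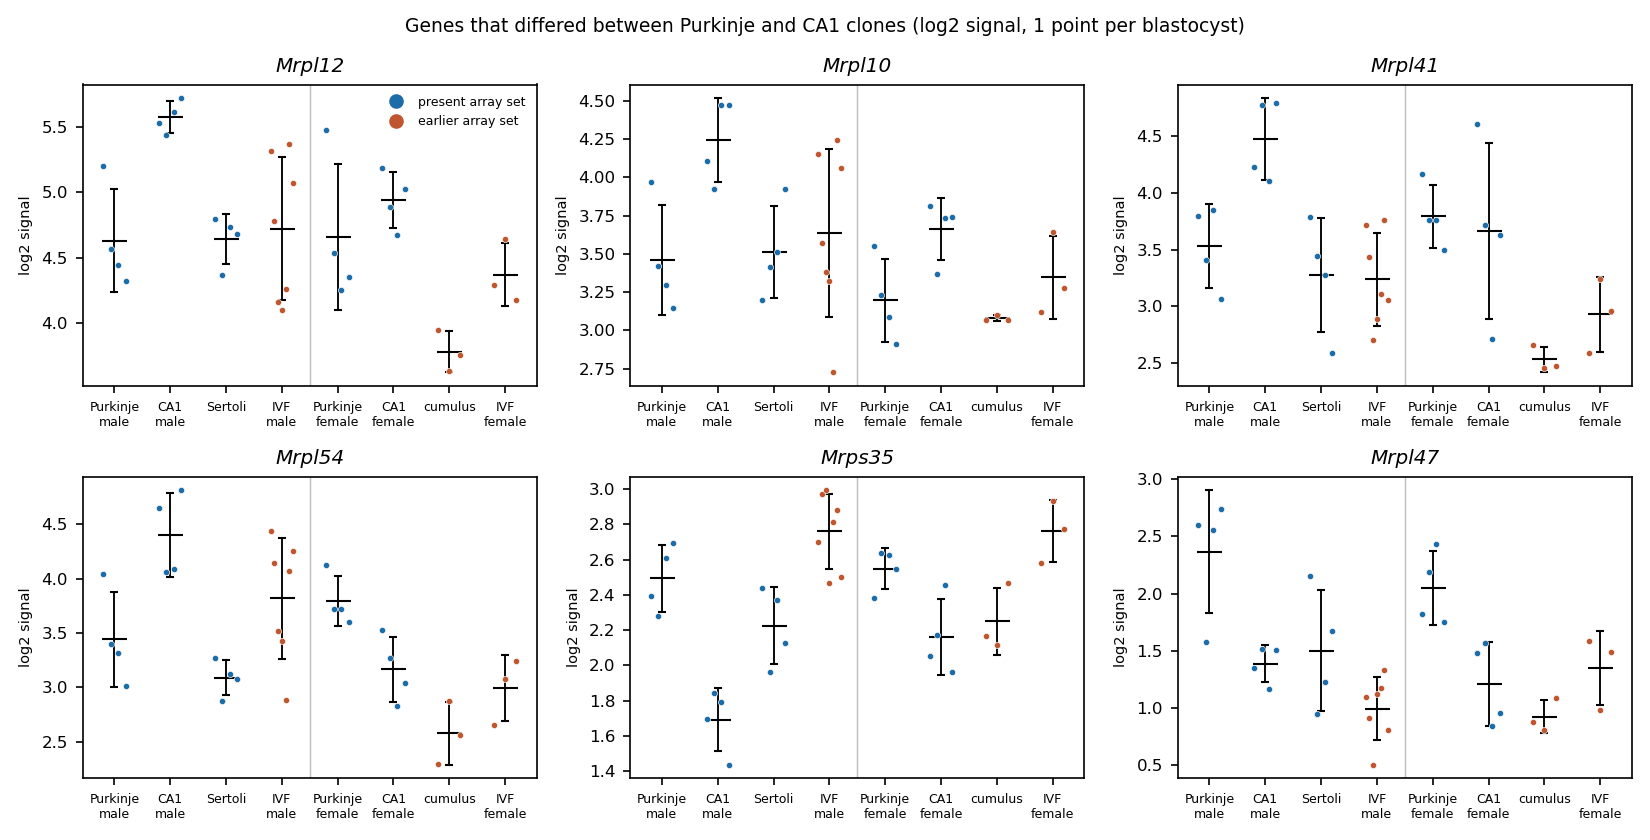
Log2 signal relative to the 75th percentile of the array for 6 genes called between male Purkinje and male CA1 clones, in each blastocyst (points), with group mean and SD; males are left of the grey line. Mrpl12, Mrpl10, Mrpl41 and Mrpl54 are highest in male CA1 clones, Mrps35 is lowest there, and Mrpl47 is higher in Purkinje than in CA1 clones of both sexes.

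Other members lower in male Purkinje than in male CA1 clones were Mrps25 (-1.11 ± 0.31), Mrpl54 (-0.96 ± 0.27), Mrpl41 (-0.94 ± 0.31), Mrpl22, Mrps16 (-0.69) and Mrps21 (-0.67). Higher in male Purkinje clones were Mrps15 (0.91 ± 0.25), Mrps14 (0.86), Mrpl18 (0.86), Mrps35 (0.80 ± 0.15, adjusted p = 0.000784), Mrpl16 (0.73) and Mrpl19 (0.73). The Mrps35 difference had the smallest adjusted p of the members in this comparison. Mrpl47 was higher in Purkinje clones of both sexes: 2.60, 1.58, 2.55 and 2.74 in male Purkinje clones, against 1.35, 1.52, 1.17 and 1.51 in male CA1 clones (0.98 ± 0.25, adjusted p = 0.00821), and 1.82, 2.19, 2.44 and 1.75 in female Purkinje clones, against 1.48, 1.57, 0.84 and 0.96 in female CA1 clones (0.84 ± 0.25, adjusted p = 0.032). The groups did not overlap in either sex. A second Mrpl47 probe gave 0.24 in males and -0.32 in females, neither called. In females Mrpl39 (0.73) and Mrpl35 (0.69) were also higher and Mrpl4, the counterpart of L4, was lower (-0.79).

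The 3 paralogues that descend from the bacterial protein S18 differed from one another. Mrps18a belongs to the large subunit, and Mrps18b and Mrps18c to the small one. Mrps18b was 1.22, 0.50, 3.74 and 4.24 in male Purkinje clones, against 0.75, 0.95, 0.31 and 0.52 in male CA1 clones, and 0.55, 3.63, 3.05 and 3.82 in female Purkinje clones, against 0.79, 0.69, -0.01 and -0.03 in female CA1 clones. The differences were 1.79 ± 0.60 (adjusted p = 0.0364) and 2.40 ± 0.60 (adjusted p = 0.0105), and the female Purkinje clones exceeded female IVF blastocysts by 2.10 ± 0.65 (adjusted p = 0.0224). The Purkinje clones thus split, and the 5 high values were those of the 5 arrays with a 75th percentile under 500, while the other 3 lay within the range of the remaining groups (-0.03 to 1.93). Without the 5 arrays the differences from CA1 were 0.23 in males and 0.18 in females, and neither was called. A second probe, in whose values the 8 Purkinje arrays did not split, gave 0.22 and 0.42 for the same differences, neither called, and the remaining one lay on the floor on all arrays.

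Mrps18c was called higher than in IVF blastocysts in male Purkinje (0.75), male CA1 (0.58) and female Purkinje clones (0.81). It was called in none of them after quantile normalization. A second probe gave 0.18, 0.05 and 0.23, none called. Mrps18a was called in Sertoli clones, where it was lower than in male IVF blastocysts (-0.66 ± 0.22, adjusted p = 0.0302).

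**Figure D5:**
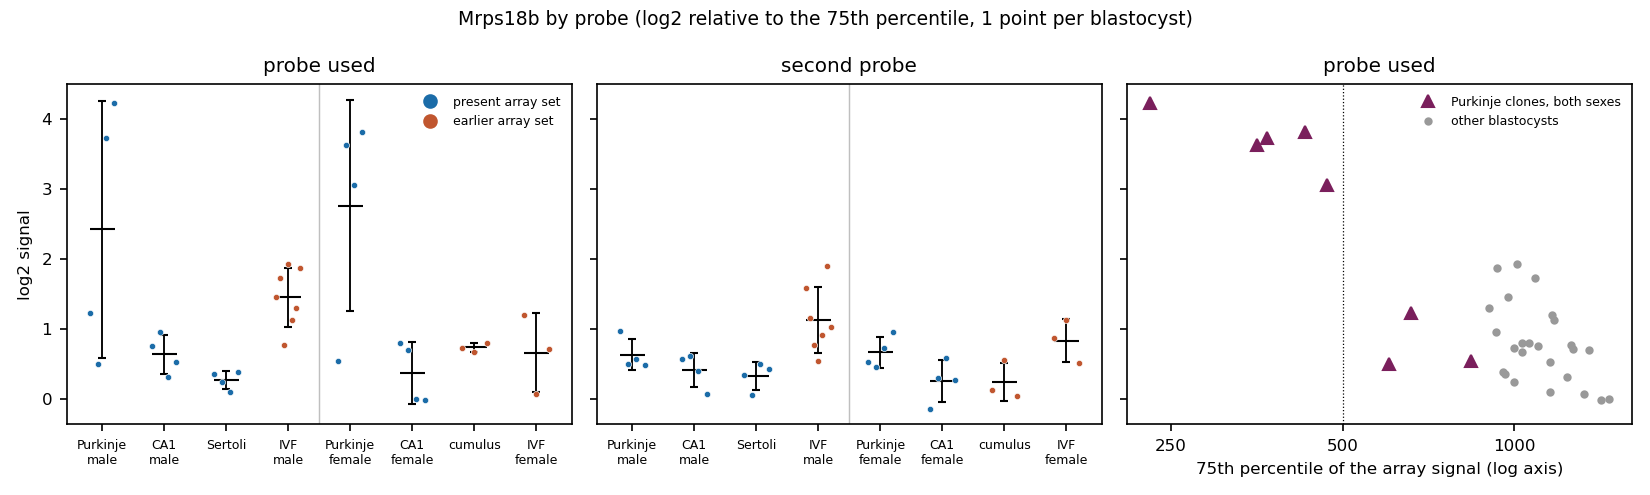
Log2 signal of Mrps18b in each blastocyst (points) by group with mean and SD, for the probe used (left) and a second probe (middle), and for the probe used against the 75th percentile of the array signal (right, log axis, dotted line at 500). The 5 arrays under 500, all from Purkinje clones, have values of 3.05 to 4.24, and all other arrays have values under 2.

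Purkinje and CA1 clones were also set against the clones of the other donors. Male Purkinje clones had 7 members called higher (9.33%) and 0 lower than Sertoli clones, where 3.36% and 1.42% of all genes were, among them Mrps18b, Mrpl15 (0.89 ± 0.18, adjusted p = 0.00359), Mrpl47 (0.87) and Mrpl39 (0.74). The count was 1 without Sertoli replicate 2 or 3 or without Purkinje replicate 3 or 4. Male CA1 clones had 9 called higher (12%) and 2 lower (2.67%), where 5.52% and 6.32% of all genes were, and 17 and 0 after quantile normalization, where 6.36% and 5.72% were. The largest were Mrpl54 (1.32 ± 0.27, adjusted p = 0.00263), Mrpl52 (1.22), Mrpl41 (1.20) and Mrpl22, and the 2 lower ones Mrps9 (-0.80) and Mrps35 (-0.53). All 11 called members were without overlap between these groups, but the same arrays gave the calls, so this is not separate evidence. The share of all genes without overlap is not given here.

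Against cumulus clones, female Purkinje clones had 43 members called higher (57.3%) and 0 lower, where 14.4% and 4.36% of all genes were, with a median of 0.82, against 0.14. Female CA1 clones had 38 called higher (50.7%) and 2 lower, where 13.9% and 5.43% were, with a median of 0.63, against 0.12. After quantile normalization the counts were 25 higher and 0 lower in female Purkinje clones, where 8.28% and 5.66% of all genes were, and 20 higher and 1 lower in female CA1 clones, where 8.92% and 6.83% were. Mrpl20, Mrpl22 and Mrpl55 were among the 5 largest in both: Mrpl20 was 5.96, 5.80, 5.45 and 5.51 in female Purkinje clones and 6.19, 5.41, 4.86 and 5.30 in female CA1 clones, against 3.95 to 4.10 in cumulus clones (differences of 1.66 ± 0.24 and 1.42 ± 0.24). No cumulus value reached the clones of either neuron. The largest in female Purkinje clones after Mrps18b were Mrpl52 (1.68), Mrpl20, Mrpl55 (1.56) and Mrpl22. In female CA1 clones they were Mrpl28 (1.74), Mrpl49 (1.60), Mrpl55 (1.54) and Mrpl22, while Mrpl9 (-1.08) and Mrpl2 (-0.91) were lower. These are comparisons across the array sets, which cannot be told apart from the donor, and they share the cumulus arrays.

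No member passed the test between the sexes of the IVF blastocysts: 0 of 75 were called between male and female IVF blastocysts, where 0.114% of all genes were called higher and 0.323% lower, and the median was 0.19. Male IVF replicate 5, the one on the slide of the females, had a members' median of -0.0055 relative to the female IVF mean (over all 7 males, at an unadjusted p under 0.05 limma gave 10 higher and 1 lower). The tests of whether a clone difference varied by sex called 0 members for Purkinje against IVF, where 0.057% of all genes were called, and 0 for CA1 against IVF, where 1.08% were. At an unadjusted p under 0.05 limma gave 5 and 11 members in these tests. Shares of all genes at an unadjusted p, here and for the sexes of the IVF blastocysts, are not given. For Purkinje against CA1, where 2.17% of all genes were called, the test of sex called Mrpl54 alone, a mitochondrion-specific protein of the large subunit. It was 4.05, 3.40, 3.31 and 3.01 in male Purkinje clones, against 4.65, 4.06, 4.09 and 4.81 in male CA1 clones, and 4.13, 3.72, 3.72 and 3.60 in female Purkinje clones, against 3.53, 3.27, 2.83 and 3.04 in female CA1 clones. Purkinje clones were thus the lower group in males and the higher one in females, without overlap in either sex, and the difference of the differences was -1.59 ± 0.39 (adjusted p = 0.0243). It was -1.19 when scaled to the array median and -1.64 without the 5 Purkinje arrays of low signal, neither called, and it was not called without male Purkinje replicate 4, male CA1 replicate 1 or 4, or female CA1 replicate 3.

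By structural class, calls of a higher level against IVF were found in each class, where 18.3% of all genes were called higher and 10.3% lower in male Purkinje clones and 17.7% and 13.3% in male CA1 clones. Among 29 large-subunit members with a bacterial counterpart, 12 were called higher and 1 lower in male Purkinje clones and 7 and 4 in male CA1 clones, with medians of 0.15 and 0.28. Among 19 mitochondrion-specific large-subunit genes, Mrpl42 included, the counts were 7 and 0, and 8 and 0, with medians of 0.36 and 0.49. Among 17 small-subunit members with a bacterial counterpart they were 6 and 0, and 7 and 2 (medians 0.38 and 0.07), and among 9 mitochondrion-specific small-subunit members 3 and 0, and 3 and 1 (medians 0.44 and 0.25). In female Purkinje clones the medians of these 4 classes were 0.53, 0.72, 0.57 and 0.14. Differences between the classes were not tested.

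Members varied less among blastocysts of a group than the typical gene did. The median SD of a member was 0.34 in male Purkinje, 0.18 in male CA1, 0.24 in Sertoli, 0.27 in female Purkinje, 0.32 in female CA1 and 0.18 in cumulus clones, against 0.36 in male and 0.23 in female IVF blastocysts. The median over all genes was larger in every group (0.29 to 0.47). No member value lay on the floor, whereas 22.2% of all kept values did. The part of signal level in this difference of spread was not tested. The most variable member was Mrps18b in Purkinje clones of both sexes (SD 1.84 in males and 1.51 in females), Mrpl9 in CA1 clones of both sexes, and Mrps11 in Sertoli clones (1.07) and male IVF blastocysts (0.86). Male CA1 clones were the tightest group, with Mrpl36 at an SD of 0.01.

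A second probe often did not repeat a call. In the 33 members with several probes, the other probe or probes pointed the opposite way, wholly or in part, in some called comparison for Mrpl3, Mrpl17, Mrpl35, Mrpl38, Mrpl44, Mrpl45, Mrpl47, Mrpl49, Mrpl50, Mrpl52, Mrps2, Mrps9 and Mrps18b. For Mrpl45, the difference between male CA1 clones and male IVF blastocysts was 0.78 by the probe used and -0.89 by the other, and for Mrpl52 it was 0.89 and -1.20. Both probes of Mrps7 were called in male CA1 clones (1.00 and 1.22). With the mean over all probes of a gene in place of the brightest, 20 members were called higher and 2 lower in male Purkinje clones than in IVF blastocysts, where 16.2% and 10.7% of all genes were, and 22 and 9 in male CA1 clones, where 15.5% and 12.9% were.

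Several subunits carry other names and are not counted above. Of 9 such genes tested (Mrpl42, Mrpl57, Mrpl58, Dap3, Ptcd3, Chchd1, Aurkaip1, Gadd45gip1 and Oxa1l, the last an insertase bound to the ribosome), 4 were called higher and 0 lower in male Purkinje, male CA1 and female Purkinje clones, and 2 and 0 in female CA1 clones, each against IVF. The shares of all genes called higher and lower were 18.3% and 10.3% (male Purkinje) and 17.7% and 13.3% (male CA1). They were 13% and 6.67% in female Purkinje clones, and 8.41% and 4.88% in female CA1 clones. Counts after quantile normalization or other processing are not given here for these genes. Gadd45gip1, which sits at the tunnel exit, was 1.96 ± 0.31 higher in male CA1 clones than in male IVF blastocysts (adjusted p = 2.38e-05) and 1.13 lower in male Purkinje than in male CA1 clones (log2 difference -1.13). Mrps36, although named as a subunit, is now known as a component of the 2-oxoglutarate dehydrogenase complex. It was higher than in IVF blastocysts in male CA1 clones (0.81 ± 0.23, adjusted p = 0.0096) and in female CA1 clones (0.91 ± 0.28, adjusted p = 0.0327).

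Genes that work with the mitochondrial ribosome showed lower as well as higher calls, as all genes did. Of 11 translation factors 2 were called higher and 2 lower in male Purkinje clones and 2 and 4 in male CA1 clones, each against male IVF blastocysts. Of all genes, 18.3% were called higher and 10.3% lower in male Purkinje clones, and 17.7% and 13.3% in male CA1 clones. Tsfm, the mitochondrial elongation factor Ts, was lower than in IVF blastocysts in each of the 5 neuronal and Sertoli groups, with log2 differences between -1.79 (female CA1 clones) and -1.28 (male CA1 clones). Gfm1, the translocation factor, was lower in male CA1 (-1.46) and female CA1 clones (-1.19) than in IVF blastocysts, and higher in Purkinje than in CA1 clones of both sexes (1.58 ± 0.33 in males and 1.16 ± 0.33 in females). The initiation factor Mtif2 did the same between Purkinje and CA1 clones (0.88 and 1.03). Of 17 mitochondrial aminoacyl-tRNA synthetases, 1 was called higher and 2 lower in both male Purkinje and male CA1 clones, and of 22 assembly factors 4 and 6, and 4 and 5. The shares of all genes given above apply to these counts too.

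Among 10 genes for mitochondrial transcription and DNA maintenance, 0 were called higher and 4 lower in male CA1 clones than in male IVF blastocysts (17.7% and 13.3% of all genes), with Lrpprc, which stabilises mitochondrial messenger RNA, at -1.20 and the packaging factor Tfam at -1.05. Of 9 nuclear regulators of mitochondrial genes, Gabpa, which can bind the ETS motif, was higher in male Purkinje (1.25 ± 0.25), Sertoli (1.55 ± 0.25), female Purkinje (1.29 ± 0.31) and female CA1 clones (1.08 ± 0.31) than in IVF blastocysts, and 0.57 in male CA1 clones did not pass (adjusted p = 0.0864). Whether Gabpa binds the letters shown above, or has a part in the levels of the members, was not tested. Myc was lower in male Purkinje (-2.28), male CA1 (-3.09), Sertoli (-2.38) and female Purkinje clones (-2.47). Nrf1 was called in none of the comparisons with IVF. The array set cannot be told apart from the group in these comparisons either.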

How the data were processed

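The members and gene lists were chosen with earlier results of these data known. Per the file headers, spot intensity was extracted and background-subtracted by Agilent Feature Extraction. The submitters' processing notes give version 10.5.1, whereas the file headers give 10.5.1.1 for the 20 Purkinje, CA1 and Sertoli arrays and 9.5.3.1 for the 13 IVF and cumulus arrays. The deposited processed intensity of each probe was the starting point. The authors' deposited log2 values of the same arrays, found to have a probe median of 0 over the 19 male and over the 14 female arrays (column medians -0.591 to 0.767), served as an alternative within each sex. Gene names came from the 13 IVF and cumulus files, which list them for the shared probes.

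Control spots and spots with an outlier flag were left out, and each array was divided by its 75th percentile, floored at 0.0929 of it (-3.43) and put on the log2 scale. Of 41174 probes, 22787 well above background on at least 50% of the arrays of a group were kept, and the brightest probe stood for each of 15793 genes. Group means over all 33 arrays were fitted with limma 3.58.1 (lmFit, eBayes, R 4.3.3), and p-values were Benjamini-Hochberg adjusted over all genes. Per comparison the 4 largest called members each way were named, with those called in most comparisons, the S18 paralogues, the stalk, Mrps36 and members whose probes disagreed. The number of arrays limits the precision.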

Additional observations from a re-analysis of the deposited data

Results flagged for a closer look

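In groups of 4 to 10 blastocysts, the highest or lowest value of a member stood apart from the others, by Dixon's test, in 23 of 449 gene and group combinations, and chance gives about 1 in 20. In male Purkinje clones these were replicate 1 for Mrpl22 (4.47), Mrpl34 (3.86), Mrps18a (3.31) and Mrps31 (4.45), replicate 2 for Mrpl47 (1.58) and replicate 3 for Mrpl49 (4.06). In male CA1 clones they were replicate 4 for Mrpl21 (1.53), Mrpl33 (5.84) and Mrps14 (1.66), replicate 1 for Mrpl32 (2.17) and replicate 2 for Mrps17 (4.27) and Mrps27 (1.61). In Sertoli clones they were replicate 4 for Mrpl22 (4.05) and replicate 2 for Mrpl53 (4.15). In female Purkinje clones they were replicate 3 for Mrpl55 (4.13) and replicate 1 for Mrps31 (4.29). In female CA1 clones they were replicate 1 for Mrpl24 (5.30), Mrpl50 (4.16), Mrpl55 (4.78), Mrps25 (3.08) and Mrps30 (5.47) and replicate 3 for Mrpl21 (2.02). In male IVF blastocysts it was replicate 2 for Mrpl49 (4.01). The difference between Purkinje and CA1 clones in Mrpl54 varied by sex, with a difference of differences, male minus female, of -1.59.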

How the results depend on the processing

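Counts of members called depended on the scaling, on low-signal arrays and on single arrays, and the causes were not tested. Comparisons are named by their groups with sex (M, F). With quantile normalization 12 members were called in Purkinje F against IVF F, 7 in CA1 F against IVF F, 7 in cumulus against IVF F, 3 in Purkinje M and 17 in CA1 M against Sertoli, 25 in Purkinje F and 21 in CA1 F against cumulus, and 2 each in the tests of sex for Purkinje against CA1 and for CA1 against IVF. Scaling to the array median, which moved the median of all genes by up to -0.38, gave 18 in Purkinje M, 18 in CA1 M, 11 in Sertoli, 14 in Purkinje F, 11 in CA1 F and 0 in cumulus against IVF, 10 (M) and 21 (F) in Purkinje against CA1, 0 in Purkinje M and 5 in CA1 M against Sertoli, and 9 in Purkinje F and 23 in CA1 F against cumulus. Normexp with quantile normalization gave 18 in Purkinje M, 12 in Purkinje F and 7 in CA1 F against IVF, 4 in Purkinje M and 17 in CA1 M against Sertoli, and 23 each in Purkinje F and CA1 F against cumulus. Normexp with 75th percentile scaling, which moved that median by up to 0.36, gave 13 in Purkinje M, 16 in CA1 M, 3 in Sertoli, 5 in Purkinje F, 1 in CA1 F and 0 in cumulus against IVF, 1 in Purkinje F against CA1 F, 1 in Purkinje M and 2 in CA1 M against Sertoli, 2 in Purkinje F and 3 in CA1 F against cumulus, and 0 in the test of sex for Purkinje against CA1. Both normexp settings, and leaving out the 5 arrays of low signal, were chosen after seeing the data. Without those arrays 12 were called in Purkinje M, 2 in Purkinje F and 1 in cumulus against IVF, 0 in Purkinje against CA1 of either sex, 0 in Purkinje M against Sertoli, 11 in Purkinje F against cumulus and 0 in that test of sex. With only the 2 groups compared in the fit the counts were 13 in Sertoli and 5 in CA1 F against IVF, 7 (M) and 0 (F) in Purkinje against CA1, 1 in Purkinje M and 19 in CA1 M against Sertoli and 20 in CA1 F against cumulus. Slide as a random block gave 1 in cumulus against IVF F and 2 in Purkinje M against Sertoli.

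With the replicate number as a block 4 members were called in Purkinje M against Sertoli, and no other count moved by over 1.5 times; no comparison had every same-numbered pair correlated above 0.1, so the numbers were not taken as pairs. Leaving out 1 array gave 21 to 30 in Purkinje M, 26 to 34 in CA1 M, 11 to 18 in Sertoli, 16 to 24 in Purkinje F, 8 to 22 in CA1 F and 0 to 2 in cumulus against IVF. It gave 10 to 21 (M) and 1 to 12 (F) in Purkinje against CA1, 1 to 12 in Purkinje M and 3 to 12 in CA1 M against Sertoli, 33 to 40 in Purkinje F and 22 to 41 in CA1 F against cumulus, 0 to 2 in IVF M against IVF F, and 0 to 3, 0 to 0 and 0 to 1 in the tests of sex for Purkinje against CA1, Purkinje against IVF and CA1 against IVF. Single arrays that moved a count by over 1.5 times, beside cumulus against IVF, IVF M against IVF F (2 without IVF M replicate 5) and the tests of sex, were these. Against IVF it was 16 in Purkinje F without IVF F replicate 3, 8, 10 and 9 in CA1 F without IVF F replicate 1, IVF F replicate 2 and CA1 F replicate 1, and 13, 12 and 11 in Sertoli without Sertoli replicates 1, 2 and 3. Purkinje against CA1 gave 11 (M) without Purkinje replicate 3 or 4 and 10 without CA1 replicate 4, and in F 12 without Purkinje replicate 1, 2 without Purkinje replicate 2 or 3, 3 without Purkinje replicate 4 or CA1 replicate 2, and 1 without CA1 replicate 4. Against Sertoli, Purkinje M had 3 without Purkinje replicate 1, 12 without replicate 2 and 1 without Purkinje replicate 3 or 4 or Sertoli replicate 2 or 3, and CA1 M had 7 without Sertoli replicate 1, 2 or 3 or CA1 replicate 3 and 3 without CA1 replicate 4. CA1 F against cumulus had 24 and 23 without cumulus replicates 2 and 3 and 22 without CA1 F replicate 1.

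The split of higher and lower calls turned in several of these. With the array median it was 6 and 12 in Purkinje M, 3 and 8 in Sertoli and 3 and 11 in Purkinje F against IVF, and 2 and 8 (M) and 1 and 20 (F) in Purkinje against CA1. Normexp with 75th percentile scaling gave 2 and 11 in Purkinje M and 1 and 2 in Sertoli against IVF, 0 and 18 (M) and 0 and 1 (F) in Purkinje against CA1, and 0 and 1 in Purkinje M against Sertoli. Quantile normalization gave 2 and 16 in Sertoli against IVF and 8 and 10 in Purkinje M against CA1 M, and with normexp before it these were 2 and 15, and 6 and 10.

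Signs turned in called members as follows. With the array median, Purkinje F against IVF gave Mrpl11 -0.0138, Mrpl3 -0.0120, Mrpl48 -5.8e-05 and Mrpl53 -0.0150, and against cumulus Mrpl16 -0.0823. Normexp with quantile normalization gave Mrpl24 -0.0215 and Mrpl3 -0.0375 in Purkinje F against IVF, and Mrpl24 -0.0243 and Mrpl3 -0.0701 in CA1 F against cumulus. Normexp with 75th percentile scaling gave Mrpl20 -0.0662, Mrpl3 -0.0130, Mrpl48 -0.0379, Mrpl49 -0.0955 and Mrps23 -0.0562 in Purkinje M against IVF, Mrpl24 -0.0828 and Mrpl3 -0.0515 in Purkinje F against IVF, Mrps30 -0.0144 in Purkinje M against CA1 M and Mrpl16 -0.0078 in Purkinje F against cumulus. The mean over probes gave Mrpl45 -0.0548 and Mrpl52 -0.16 in CA1 M against IVF, Mrpl45 -0.0453 in CA1 F against IVF and Mrpl3 -0.29 in CA1 F against cumulus. Without the 5 arrays Mrps18b was -0.11 in Purkinje F against IVF and -0.19 against cumulus. No filter on dim probes, the mean over probes and the authors' deposited log2 values moved no count by over 1.5 times where they gave one.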
